A study of Mus musculus with 6 samples.

Results

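Type 17 T cells are lymphocytes that secrete IL-17A and IL-17F. Some of them are conventional helper cells that acquire this program after priming, and others, such as many gamma-delta T cells, are innate-like cells that leave the thymus with the program already set. IL-1 and IL-23 are the inflammatory cytokines that drive both kinds, and IL-10 is a cytokine that restrains inflammatory T cells in many settings. The 9 genes described here belong to that program. They comprise the cytokines Il17a and Il17f, the receptor chains Il17re, Il23r and Il1r1, the Src family kinase Blk, the scavenger receptor genes 5830411N06Rik (also named Scart2) and Cd163l1 (also named Scart1), and the transcription factor Sox13. Blk, both Scart genes and Sox13 are known for their expression in IL-17-producing gamma-delta T cells. The 9 genes were picked by name from the 29393 genes of the count table, with the difference between the groups already known. Every value that compares the groups for these 9 genes is therefore a description without a test.

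The cells were CD4-derived double negative T cells (cDNT), T cells that lack CD4 and CD8 on their surface, from adult C57BL/6 mice. According to the study's methods they were made from CD4+CD25- T cells of spleen and lymph nodes by culture on mature dendritic cells together with IL-2 followed by sorting, whereas the labels name spleen as the tissue. The W/ IL-10 group received IL-10 at 50 ng/ml for 24 h and the W/O IL-10 group did not. The methods add anti-CD3/CD28 antibodies to this culture, which the labels do not mention. Each group had 3 libraries, although the series' design text mentions duplicates, and nothing states whether they came from separate mice or cultures, so the spread between them may be technical. Total counts lay between 21619420 and 23967088, and the floor of detection, set at 3 counts for counting error alone, was 0.122 to 0.146 CPM (counts scaled by library size). Of the marker genes of the sorted cell, Trac had 5342 to 6930 counts per library and Cd3e 5286 to 7100. Cd4 had 8 to 38 counts, but Cd8a had 2316 to 3786 in these cells described as double negative. Trdc, the constant segment of the T cell receptor delta chain, had 1448 to 1852 counts.

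All 9 genes had lower mean CPM W/ IL-10, at 44.2% to 65.9% of the W/O IL-10 mean. In each of them the highest W/ IL-10 library lay below the lowest W/O IL-10 library. The groups did not overlap in this direction for 11.2% of the 14916 tested genes (22.6% in either direction), and nothing is read from the comparison since these 9 were chosen on this contrast. The median log2 fold change of the 9 genes was -0.88, between -1.18 for Il17re and -0.60 for Il1r1, against 0.0063 for all tested genes. A gene was called at a fold change of at least 1.5 and an adjusted p-value under 0.05 in the quasi-likelihood test of edgeR. By this rule 6 of the 9 genes were called lower and Il17f, Il23r and Il1r1 were not, where 0.677% of all tested genes were called lower. In these bulk libraries, fewer cells that carry the program and less RNA per cell cannot be told apart.

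The count of 6 varied with the libraries in the fit, as did the calls over all tested genes, 217 with all 6 libraries. Without W/O IL-10 replicate 1, 2 or 3 it was 7, 1 and 6, beside 254, 75 and 180 calls over all tested genes. Without W/ IL-10 replicate 1, 2 or 3 it was 0, 2 and 0, beside 57, 98 and 35. All 9 genes were lower W/ IL-10 in each of these fits. DESeq2 on all 6 libraries called 9, beside 359 over all tested genes.

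The promoters of the cytokine genes and of Il23r are shown because they hold AGGTCA, a core motif of nuclear receptors that Rora, a nuclear receptor of type 17 cells, is known to bind. The windows hold the 250 bases before the RefSeq start of each gene (GRCm38.p6), 5′ to 3′ in the direction of the gene, with AGGTCA or its reverse complement TGACCT in capitals and a TGANTCA motif of AP-1 in capitals at the start of the Il17a window.
Il17a (chr1:20730655-20730904, + strand): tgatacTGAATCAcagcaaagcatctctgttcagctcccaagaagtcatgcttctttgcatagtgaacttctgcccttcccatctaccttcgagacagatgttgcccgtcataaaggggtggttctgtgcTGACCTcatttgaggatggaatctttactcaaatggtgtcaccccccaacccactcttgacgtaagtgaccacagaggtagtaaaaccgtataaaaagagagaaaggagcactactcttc
Il17f (chr1:20784271-20784520, - strand): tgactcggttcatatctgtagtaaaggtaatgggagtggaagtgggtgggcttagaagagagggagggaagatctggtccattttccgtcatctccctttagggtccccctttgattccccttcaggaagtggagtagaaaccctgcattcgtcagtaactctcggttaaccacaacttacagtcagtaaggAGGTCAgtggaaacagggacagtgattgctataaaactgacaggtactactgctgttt
Il23r (chr6:67491856-67492105, - strand): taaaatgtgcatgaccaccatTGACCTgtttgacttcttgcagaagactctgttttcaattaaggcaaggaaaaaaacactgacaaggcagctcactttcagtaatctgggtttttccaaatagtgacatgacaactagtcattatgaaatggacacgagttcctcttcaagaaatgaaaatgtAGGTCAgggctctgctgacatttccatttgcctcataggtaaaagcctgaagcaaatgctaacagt
Counted backwards from the start, with -1 as the last base before it, AGGTCA lay on the given strand at -58 to -53 in Il17f and at -66 to -61 in Il23r. TGACCT lay at -120 to -115 in Il17a and at -229 to -224 in Il23r. The RefSeq table gave 11 windows for 8 of the 9 genes, all but Blk, with 2 windows for Il1r1, 3 that overlap for 5830411N06Rik and 1 for each of the others. The motif lay on either strand in 4 of the 11 windows, the fourth being 1 of the 3 of 5830411N06Rik, at -238 to -233. Of all 32851 windows of this length, 14.0% held it. The STAT motif TTCNNNGAA, present in 7.02% of all windows, was found only in Sox13, at -212 to -204, and the AP-1 motif, present in 6.75%, only in Il17a. The SOX motif AACAAT (9.42% of all windows) was found in none of the 11. All motifs were searched on both strands, and a match is a description of the letters, not a binding site.

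**Figure D1:**
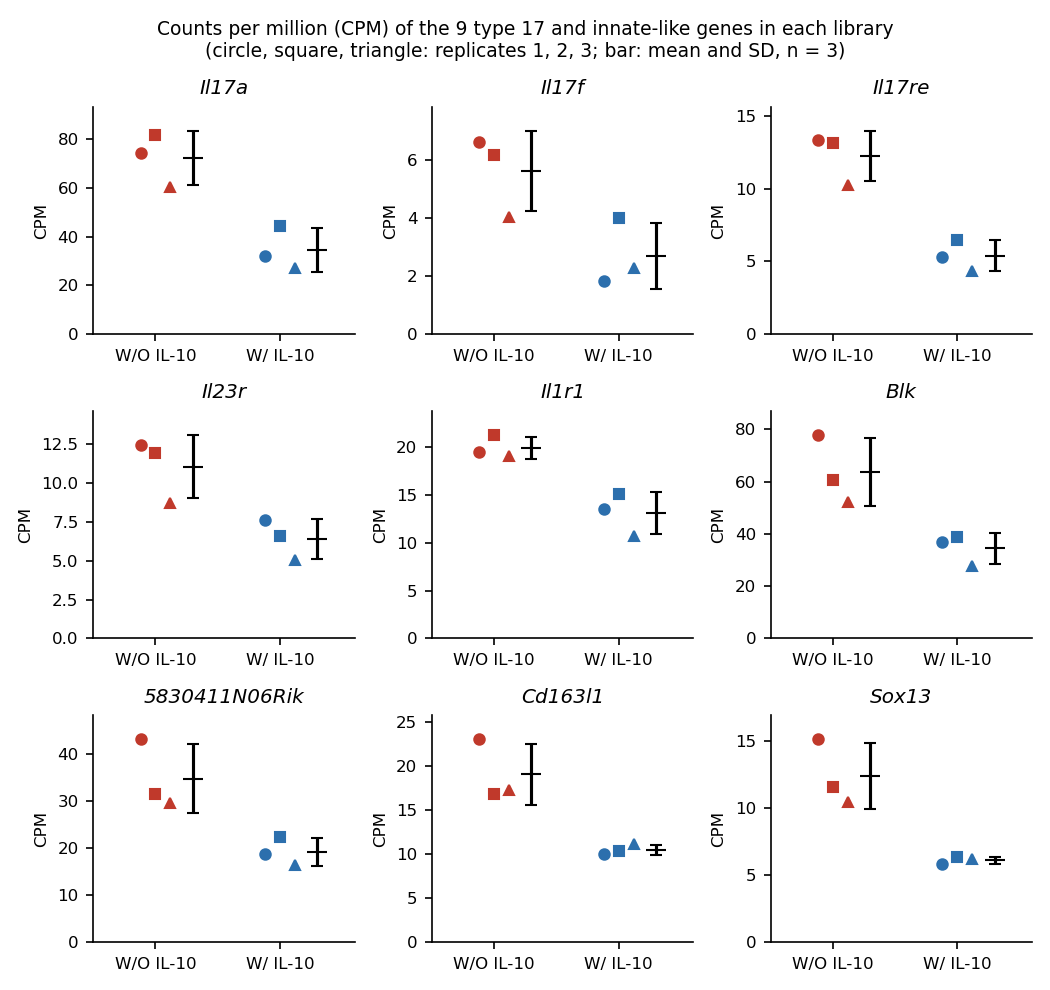
Each panel plots the CPM (vertical axis, from 0) of 1 gene in the 3 W/O IL-10 libraries (red) and the 3 W/ IL-10 libraries (blue), with circles, squares and triangles for replicates 1, 2 and 3 and black bars for the mean and SD. In all 9 panels the blue points lie below the red ones, with the smallest distance in Il17f, where W/ IL-10 replicate 2 (3.99 CPM) nearly reaches W/O IL-10 replicate 3 (4.05 CPM).

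Il17a and Il17f encode the secreted cytokines that signal, as dimers, to epithelial and stromal cells. Il17a (ENSMUSG00000025929, chr1:20730905-20734496, + strand) was measured at 74.3, 81.7 and 60.2 CPM in replicates 1, 2 and 3 of the W/O IL-10 group and at 32.1, 44.3 and 27.0 CPM in those of the W/ IL-10 group. Even the lowest W/O IL-10 library was well above the highest W/ IL-10 library. The mean was 72.1 ± 10.9 CPM W/O IL-10 and 34.5 ± 8.87 CPM with IL-10 (SD over n = 3 libraries), which is -1.06 (SE 0.18) as a log2 fold change, or 2.09-fold lower. On the scale of CPM per kilobase of exon it was the most abundant of the 9 genes. Its W/O IL-10 level of 61.5 exceeded that of 95.04% of all tested genes, and its W/ IL-10 level of 29.5 exceeded that of 87.7%. These are RNA levels, and secreted protein was not measured in these libraries. The paper reports low or no IL-17 secretion by cDNT. It also reports that IL-10 left cDNT cytokine secretion unaffected, without naming the cytokines in its main text.

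Il17f (ENSMUSG00000041872, chr1:20777146-20790617, - strand) is the nearest protein-coding gene to Il17a on that side, 42650 bases away. It was measured at 6.61, 6.16 and 4.05 CPM W/O IL-10 and at 1.84, 3.99 and 2.28 CPM W/ IL-10. These values rest on 38 to 162 counts, the fewest of the 9 genes, and the 38 counts of W/ IL-10 replicate 1 have an exact Poisson 95% interval of 26.9 to 52.2. The mean was 5.60 ± 1.37 CPM W/O IL-10 and 2.70 ± 1.14 CPM with IL-10 (SD over n = 3 libraries), which is -1.05 (SE 0.31) as a log2 fold change. The groups almost touched, and the change was of the same size as that of Il17a with a larger error. Of its 50-base stretches, 5.64% also occur in transcripts of other genes, and how reads from these stretches were counted is not known. Per length, Il17f stood at 4.47% ± 0.634 of Il17a W/O IL-10 and at 4.47% ± 1.01 with IL-10 (SD, n = 3), with overlapping groups.

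Il17re encodes the chain that pairs with IL-17RA to receive IL-17C, an IL-17 family member made mainly by epithelium. It had the largest fold change of the 9 genes (ENSMUSG00000043088, chr6:113458484-113470758, + strand). Its values were 13.3, 13.1 and 10.2 CPM W/O IL-10 and 5.34, 6.48 and 4.38 CPM W/ IL-10, with a clear gap between the groups. The mean was 12.2 ± 1.71 CPM and 5.40 ± 1.05 CPM (SD over n = 3 libraries), which is -1.18 (SE 0.18) as a log2 fold change. Il17ra, the shared chain of these receptors, was measured at 172 ± 16.7 CPM W/O IL-10 and 163 ± 20.7 CPM with IL-10 (log2 fold change -0.07, SE 0.11, adjusted p = 0.813, edgeR). Per length, Il17re stood at 10.6% ± 2.33 of Il17ra W/O IL-10 and at 4.96% ± 1.28 with IL-10, and these shares did not overlap. Il17rc, which with IL-17RA receives IL-17A and IL-17F, starts 669 bases beyond Il17re. It was at 2.99 ± 0.164 CPM W/O IL-10 and 1.67 ± 0.506 CPM with IL-10, on 28 to 76 counts, with groups that did not overlap, and was not called (log2 fold change -0.84, SE 0.27, adjusted p = 0.175, edgeR).

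Il23r encodes the chain that gives the IL-23 receptor its specificity (ENSMUSG00000049093, chr6:67422932-67491855, - strand). It was measured at 12.4, 11.9 and 8.74 CPM W/O IL-10 and at 7.62, 6.56 and 5.03 CPM W/ IL-10. W/O IL-10 replicate 3 was lower than the others of its group and lay nearer to the highest W/ IL-10 library than to them. The mean was 11.0 ± 2.01 CPM W/O IL-10 and 6.41 ± 1.30 CPM with IL-10 (SD over n = 3 libraries), which is -0.79 (SE 0.20) as a log2 fold change. Its partner Il12rb1, shared with the IL-12 receptor, was at 192 ± 9.49 and 181 ± 10.8 CPM (log2 fold change -0.08, SE 0.08, adjusted p = 0.669, edgeR). Il23r stood per length at 9.49% ± 1.51 of Il12rb1 W/O IL-10 and at 5.89% ± 1.503 with IL-10, without overlap.

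Il1r1, the signalling receptor of IL-1 (ENSMUSG00000026072, chr1:40225080-40317257, + strand), had the smallest fold change. Its values were 19.5, 21.2 and 19.1 CPM W/O IL-10 and 13.5, 15.1 and 10.7 CPM W/ IL-10. The W/O IL-10 libraries lay close together and all above the W/ IL-10 libraries. The mean was 19.9 ± 1.15 CPM and 13.1 ± 2.23 CPM (SD over n = 3 libraries), which is -0.60 (SE 0.14) as a log2 fold change, close to the fold limit of the call rule. Its accessory chain Il1rap was at 13.7 ± 2.01 and 14.5 ± 1.19 CPM (log2 fold change 0.08, SE 0.14, adjusted p = 0.837, edgeR). Per length, the level of Il1r1 was 263% ± 39.004 of that of Il1rap W/O IL-10 and 163% ± 27.8 with IL-10, again without overlap. Beside Il1r2, the decoy receptor of IL-1, it stood per length at 84.5% ± 20.3 W/O IL-10 and at 67.6% ± 9.07 with IL-10, with overlapping groups.

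Blk encodes a Src family tyrosine kinase known from B cells and from IL-17-producing gamma-delta T cells (ENSMUSG00000014453, chr14:63372836-63417037, - strand). It was measured at 77.7, 60.7 and 52.1 CPM W/O IL-10 and at 36.7, 38.9 and 27.6 CPM W/ IL-10. W/O IL-10 replicate 1 was the highest library and W/ IL-10 replicate 3 the lowest. The mean was 63.5 ± 13.0 CPM W/O IL-10 and 34.4 ± 5.99 CPM with IL-10 (SD over n = 3 libraries), which is -0.88 (SE 0.17) as a log2 fold change. Since Blk is also a B cell gene, the B cell markers are given beside it. The summed CPM of 9 B cell markers was 61.2, 166 and 108 in the W/O IL-10 libraries and 63.5, 113 and 67.9 in the W/ IL-10 libraries, in order of replicate, so the groups overlapped. The library with the most Blk in the W/O IL-10 group had the lowest B cell sum of that group, and in the W/ IL-10 group the library with the most Blk had the highest. The 8 B cell markers tested all had negative log2 fold changes, from -0.53 to -0.03, each with overlapping groups. Their part in the level of Blk was not tested. Lck, the Src family kinase of the T cell receptor, was at 268 ± 20.2 CPM W/O IL-10 and 353 ± 38.8 CPM with IL-10. It was higher without overlap but not called (log2 fold change 0.40, SE 0.10, adjusted p = 0.0921, edgeR). Per length, Blk stood at 26.0% ± 6.74 of Lck W/O IL-10 and at 10.7% ± 2.61 with IL-10, without overlap, a share that also holds the difference in Lck.

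5830411N06Rik and Cd163l1 encode scavenger receptors of the cysteine-rich group B kind on the T cell surface, and they are neighbours on chromosome 7, 16139 bases apart and on the same strand. 5830411N06Rik (ENSMUSG00000054672, chr7:140247284-140300736) was measured at 43.0, 31.4 and 29.7 CPM W/O IL-10 and at 18.7, 22.3 and 16.3 CPM W/ IL-10. Cd163l1 (ENSMUSG00000025461, chr7:140218267-140231145) was measured at 23.0, 16.9 and 17.3 CPM W/O IL-10 and at 10.05, 10.42 and 11.16 CPM W/ IL-10. In both, W/O IL-10 replicate 1 stood above the other libraries, and the W/ IL-10 libraries of Cd163l1 were the more alike. The means of 5830411N06Rik were 34.7 ± 7.27 and 19.1 ± 2.99 CPM (log2 fold change -0.86, SE 0.17). Those of Cd163l1 were 19.1 ± 3.45 and 10.5 ± 0.566 CPM (log2 fold change -0.85, SE 0.14; SD, n = 3). The pair kept nearly the same proportion, Cd163l1 standing per length at 79.3% ± 3.95 of 5830411N06Rik W/O IL-10 and at 80.9% ± 15.8 with IL-10, with overlapping groups.

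Sox13 encodes an HMG box transcription factor of the SoxD family, known as a lineage factor of gamma-delta T cells (ENSMUSG00000070643, chr1:133382303-133424377, - strand). It was measured at 15.1, 11.5 and 10.5 CPM W/O IL-10 and at 5.82, 6.34 and 6.17 CPM W/ IL-10. The W/ IL-10 libraries agreed closely while W/O IL-10 replicate 1 stood apart from the other two of its group. The mean was 12.4 ± 2.43 CPM W/O IL-10 and 6.11 ± 0.264 CPM with IL-10 (SD over n = 3 libraries), which is -1.02 (SE 0.16) as a log2 fold change. Its relatives were scarce, Sox5 with 7 to 15 counts and Sox6 with 1 to 11.

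Among themselves the 9 genes differed more in level than in fold. Per kilobase of exon the order was the same in both groups. It ran from Il17a (61.5 W/O IL-10) and Blk (23.5) through 5830411N06Rik (6.27), Cd163l1 (4.95) and Il23r (4.44) to Il1r1 (3.13), Sox13 (2.87), Il17f (2.77) and Il17re (2.08). In the W/O IL-10 group, Cd163l1 and Il23r, Il1r1 and Sox13, and Sox13 and Il17f lay closer to each other than the larger of their SDs, and the other neighbours in this order lay further apart. The libraries also varied together within a group. W/O IL-10 replicate 3 was the lowest of its group for 8 of the 9 genes and replicate 1 the highest for 7, Il17a and Il1r1 being highest in replicate 2. W/ IL-10 replicate 2 was the highest of its group for 7 genes, and replicate 3 the lowest for 6. How many of all tested genes share these orders was not counted, so they are not read as particular to the 9 genes. The summed CPM of the 9 genes ranged from 212 to 285 W/O IL-10 and from 111 to 154 W/ IL-10.

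**Figure D2:**
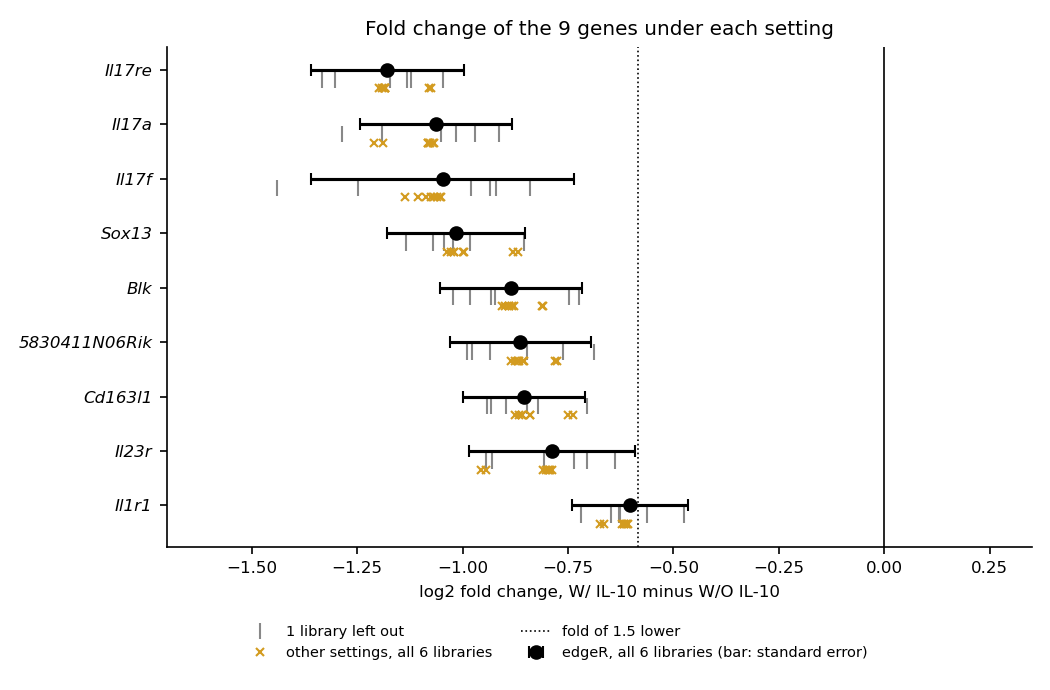
The horizontal axis gives the log2 fold change (W/ IL-10 minus W/O IL-10) of each gene, with the edgeR value of all 6 libraries as a black point and its standard error as a bar, fits with 1 library left out as grey ticks, and the other settings as yellow crosses. All values lie left of 0, between -1.44 and -0.48, and Il17f has the widest spread.

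GC content differs among the 9 genes, from 41.6% in Il23r to 60.8% in Sox13. With each library corrected for GC content and length, the log2 fold change was -1.19 for Il17a and -0.96 for Il23r, further from 0 than without the correction, and -0.88 for Sox13 and -0.75 for Cd163l1, nearer to 0. The corrected fit called 8 of the 9 genes.

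The 3 genes whose log2 CPM followed that of Il17a most closely over the 6 libraries were St3gal2 (Pearson r = 0.994), Gclc (r = 0.993) and Mgmt (r = 0.993). The 6 points share the difference between the groups, and these correlations are a description only. St3gal2, a sialyltransferase, was at 18.5 ± 0.869 CPM W/O IL-10 and 12.5 ± 1.78 CPM with IL-10 (log2 fold change -0.56, SE 0.13, adjusted p = 0.0613, edgeR), and was not called.

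Further genes, in lists drawn up around the program and called program genes here for short, moved in both directions. The lists also hold family relatives of the 9 genes and signalling genes such as Lck and Fyn. A call in them is therefore not by itself a call of the program. Of the 4 called higher, Il18r1 and Il18rap were listed as cytokine inputs, Fgr as a Src family kinase and Nfkbiz as a transcription factor. Of 75 genes in 9 lists arranged by role, 64 could be tested, of which 3 were called lower W/ IL-10 (Etv5, Id3 and Gpr183), 4 higher (Il18r1, Il18rap, Nfkbiz and Fgr) and 57 neither. Of all tested genes 0.677% were called lower and 0.778% higher. The median log2 fold change of the 64 genes was -0.02, beside 0.0063 for all tested genes.

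Rora was at 61.0 ± 8.47 CPM W/O IL-10 and at 50.1 ± 7.44 CPM with IL-10 (SD over n = 3 libraries), with overlapping groups (log2 fold change -0.28, SE 0.13, adjusted p = 0.360, edgeR). Of the 17 transcription factors tested, 2 were called lower and 1 higher, with a median log2 fold change of -0.21. In edgeR 13 of them had an unadjusted p under 0.05, and DESeq2 called 5. Etv5, an Ets factor of IL-17-producing gamma-delta T cells, fell from 15.7 ± 0.625 to 10.4 ± 0.431 CPM (log2 fold change -0.60, SE 0.11, adjusted p = 0.0290, edgeR). Id3, an inhibitor of E proteins in T cell development, fell from 3.53 ± 0.424 to 1.44 ± 0.256 CPM on 27 to 95 counts (log2 fold change -1.29, SE 0.24, adjusted p = 0.0322, edgeR). Nfkbiz, an IκB family cofactor that promotes IL-17 expression, rose from 62.2 ± 5.64 to 96.2 ± 7.69 CPM (log2 fold change 0.63, SE 0.09, adjusted p = 0.0146, edgeR).

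Chosen after their values were seen, Maf and Batf, both factors of type 17 cells, had adjusted p-values of 0.0272 and 0.0390 (edgeR) at log2 fold changes of -0.52 and 0.48, short of the fold limit. Also chosen so, Zbtb16 (PLZF, the factor of innate-like T cells) had a log2 fold change of -0.72 (SE 0.18) and Sox4 one of -1.28 (SE 0.34), and neither was called (adjusted p = 0.0974 and 0.111, edgeR).

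Of the 17 genes of the IL-23, IL-1, IL-6 and TGF-beta inputs, none was called lower and 2 were called higher, with a median log2 fold change of 0.08. Il18r1 and Il18rap, the 2 chains of the receptor for IL-18, a cytokine of the IL-1 family, rose together. Il18r1 rose from 123 ± 10.4 to 206 ± 35.6 CPM (log2 fold change 0.75, SE 0.13, adjusted p = 0.0247, edgeR). Il18rap rose from 171 ± 21.0 to 260 ± 34.2 CPM (log2 fold change 0.61, SE 0.12, adjusted p = 0.0434, edgeR). Their groups did not overlap.

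Of the 11 surface and other genes of type 17 cells, 1 was called lower, with a median log2 fold change of -0.36. In edgeR 7 had an unadjusted p under 0.05, and DESeq2 called 4. Named after their values were seen, Tmem176a, Tmem176b, Ramp1 and Il7r were lower without overlap, and Serpinb1a and Ccr2 higher without overlap. Serpinb1a had an adjusted p of 0.0247 (edgeR) at a log2 fold change of 0.56, short of the fold limit. Gpr183, the oxysterol receptor that guides type 17 cells, fell from 109 ± 10.9 to 61.4 ± 3.60 CPM (log2 fold change -0.83, SE 0.09, adjusted p = 0.00383, edgeR). Ccr6, the chemokine receptor typical of type 17 cells, was scarce at 15 to 41 counts and differed by less than the spread between libraries (1.26 ± 0.487 and 0.977 ± 0.222 CPM, log2 fold change -0.36, SE 0.38, adjusted p = 0.710, edgeR). Of the 6 Src family kinases tested, Fgr rose from 14.3 ± 1.27 to 22.8 ± 2.29 CPM (log2 fold change 0.67, SE 0.12, adjusted p = 0.0272, edgeR). DESeq2 called 2 genes of this list. Src, named after its values were seen, was at 3.62 ± 0.532 and 1.83 ± 0.369 CPM without overlap and was not called by edgeR (log2 fold change -0.99, SE 0.24, adjusted p = 0.0847).

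The rest of the IL-17 family was scarce. Of the ligands, Il17b, Il17d and Il25 had at most 7 counts in a library, and Il17c, the ligand of IL-17RE, had 2 to 16. Il22, the partner cytokine of many type 17 cells, had 0 to 9 counts and was not tested, so a difference was not detectable at this depth. None of the 6 IL-17 receptor chains and adaptors and none of the 4 group B scavenger receptor relatives tested was called by edgeR or DESeq2. In edgeR 1 gene of each list, Il17rc and Cd5, had an unadjusted p under 0.05. Cd5, named after its values were seen, was lower without overlap, at 62.3 ± 7.45 and 44.8 ± 2.01 CPM. Its adjusted p was 0.0467 (edgeR) at a log2 fold change of -0.47, short of the fold limit. The only tested genes among the ligands (Il17c), the other cytokines (Csf2) and the SoxD relatives (Sox5) were not called by either tool and had unadjusted p-values above that limit.

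The calls of the program genes also varied with the libraries in the fit, like those over all tested genes. Leaving out each of the 6 libraries in turn, Gpr183 was called in 5 of the 6 fits (adjusted p up to 0.0524, without W/ IL-10 replicate 3), Il18r1, Il18rap, Nfkbiz and Fgr in 2, and Etv5 and Id3 in 1. None of the 64 tested genes was called by edgeR when W/ IL-10 replicate 3 was left out, with 22 at an unadjusted p under 0.05, and 1 was called when W/O IL-10 replicate 2 was left out. All 7 kept their direction in these fits.

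**Figure D3:**
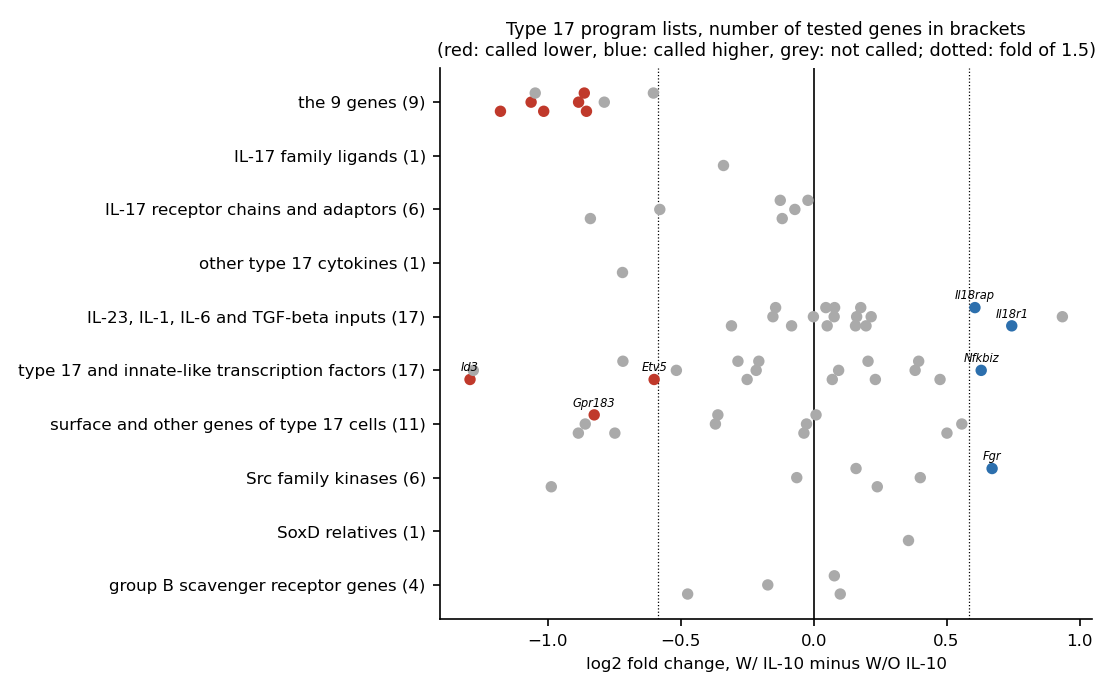
Each point is a tested gene, placed by its log2 fold change (horizontal axis, W/ IL-10 minus W/O IL-10) in the row of its list. The 9 genes of the top row, chosen for this contrast, all lie left of 0, whereas the 64 program genes lie on both sides, with 3 called lower in red and 4 called higher in blue.

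The protein-coding genes that flank the 9 on the chromosomes, looked up after the values were seen, are given for position alone. Of 14 flanking genes, 9 could be tested and none was called by edgeR (3 at an unadjusted p under 0.05), while DESeq2 called 1. Their median log2 fold change was -0.13. Mcm3, a replication gene 12351 bases from Il17f, differed by 0.11 on the log2 scale (adjusted p = 0.609, edgeR). Il12rb2, the IL-12 receptor chain 46744 bases from Il23r, differed by 0.19 (adjusted p = 0.514). Il17rc, whose values are given above beside Il17re, and Fam167a, 19357 bases from Blk, had the most negative log2 fold changes of the 9 tested. Fam167a was not called (6.96 ± 2.28 and 3.26 ± 1.23 CPM, log2 fold change -1.10, SE 0.33, adjusted p = 0.149, edgeR).

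Markers of the cells that could carry the program, or that the sort could hold, are given as summed CPM. The 12 gamma-delta T cell receptor genes summed to 322 to 377 W/O IL-10 and to 387 to 415 W/ IL-10, without overlap, but they did not move together. Tcrg-C2, the largest part of this sum, was at 146 ± 15.9 and 155 ± 8.73 CPM, with overlapping groups. Trdc was at 61.8 ± 1.75 CPM W/O IL-10 and 83.2 ± 5.79 CPM with IL-10. Of the 10 genes of this list that were tested, 7 had a positive log2 fold change and 3 a negative one. Groups did not overlap for 3 that were higher (Trdc, Tcrg-C4 and Tcrg-V1) and 2 that were lower. These 2 were the variable segments Trdv4 (244 to 247 counts W/O IL-10, 143 to 178 counts W/ IL-10) and Tcrg-V6 (40 to 46 and 19 to 29 counts). Apart from Trdc these genes are named after their values were seen. The constant segments of the alpha-beta receptor, Trac, Trbc1 and Trbc2, summed to 753 to 820 CPM W/O IL-10 and to 828 to 919 W/ IL-10. The 5 other T cell genes of that list (Cd3d, Cd3e, Cd3g, Cd247 and Cd2), which gamma-delta T cells also express, summed to 994 to 1355 and 1327 to 1503 CPM, with overlapping groups. The 6 genes of NK and innate lymphoid cells summed to 974 to 996 W/O IL-10 and 696 to 734 W/ IL-10. Eomes and Kit, named after their values were seen, made up 94.0% to 95.9% of this sum. Of the 5 genes tested, 3 were lower without overlap, Klrb1c and Klra8 overlapped, and the log2 fold change of Klra8 was positive.

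Dendritic cells, used to make the cDNT, were represented by 7 genes that summed to 31.3 to 34.6 CPM W/O IL-10 and 51.9 to 62.1 W/ IL-10, and the difference lay in Itgax. Without Itgax the other 6 genes summed to 11.9 to 13.2 and 12.1 to 12.8 CPM. These 6 did not move together. Zbtb46, a defining factor of dendritic cells, was lower without overlap, at 6.69 ± 0.466 CPM W/O IL-10 and at 4.93 ± 0.347 CPM with IL-10. Xcr1, named like Itgax after its values were seen, was higher without overlap, at 3.88 ± 0.359 and 5.88 ± 1.06 CPM. Of the 4 dendritic genes tested, 2 had a positive log2 fold change and 2 a negative one. Flt3 had 0 to 7 counts, and Clec9a and Siglech had at most 1. The 10 macrophage genes summed to 27.8 to 36.6 and 33.3 to 36.6 CPM, with Csf1r at 2 to 8 counts. The coreceptor genes Cd4, Cd8a and Cd8b1 summed to 130 to 165 and 198 to 233 CPM. The part of these cell types in the levels of the 9 genes was not tested.

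**Figure D4:**
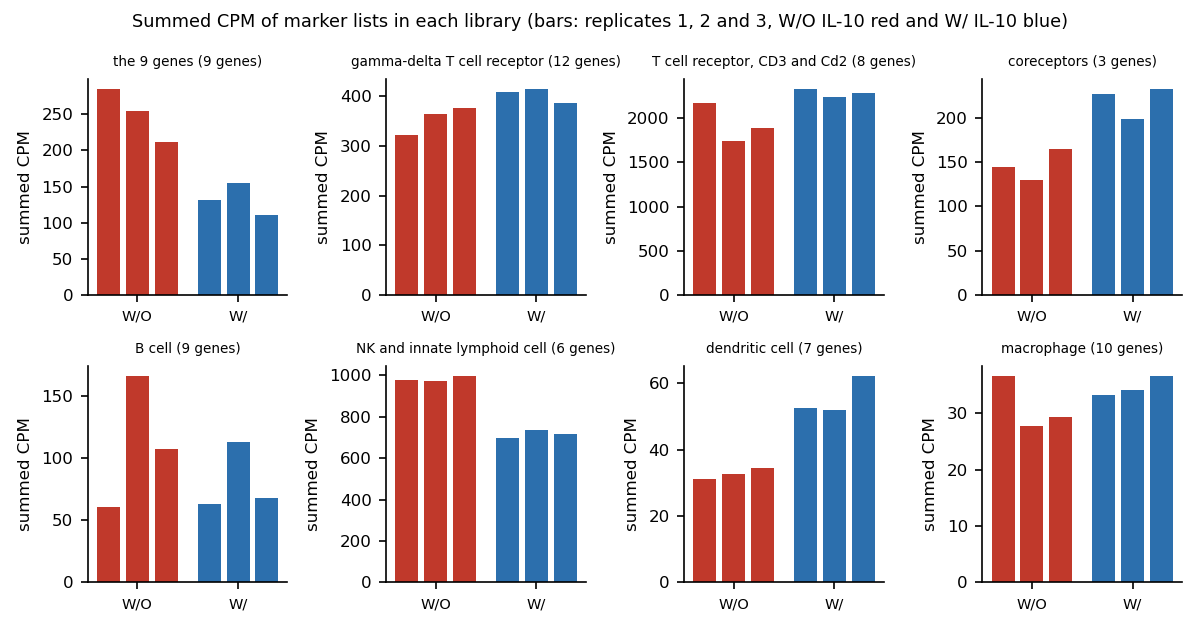
Bars give the summed CPM (vertical axes from 0, each with its own scale) of the 9 genes and of 7 marker lists in each library, W/O IL-10 in red and W/ IL-10 in blue, replicates 1 to 3 from left to right. The 9 genes and the NK and innate lymphoid list are lower W/ IL-10 in every library, the gamma-delta receptor, T cell receptor with CD3 and Cd2, coreceptor and dendritic lists are higher, the last through Itgax, and the B cell and macrophage lists overlap.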

How the data were processed

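The authors deposited 1 table of whole-number counts per Ensembl gene, not normalized, for 6 libraries. The labels name HISAT2, HTSeq and GRCm38 without versions and a TruSeq kit, whereas the paper's methods name TopHat, Cufflinks, UCSC annotation and a NEBNext kit. The annotation release and the use of strand are not given in the sources used here. No pair of libraries held identical values.

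edgeR 4.0.16 (R 4.3.3) computed TMM factors (0.953 to 1.03) and the quasi-likelihood test on the 14916 genes that reached 10 counts in 3 or more libraries, in 1 fit of all 6 libraries without a block, with Benjamini-Hochberg adjustment over all tested genes. The call rule, a fold change of at least 1.5 and an adjusted p under 0.05, follows the study. CPM values use TMM-scaled library sizes, and the SE is the log2 fold change divided by the square root of F. Levels per kilobase use the exon length in GENCODE M21 (GRCm38), in which 29332 of 29393 genes were found. Promoter windows come from RefSeq (GRCm38.p6).

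The alternatives were DESeq2 1.42.0, upper-quartile factors, other count filters, limma-voom (limma 3.58.1), the replicate block, a GC and length correction with splines of 5 degrees of freedom, and each library left out. The steps were tested on simulated data.

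The 9 genes and all lists were chosen with earlier results of these data known. Named with values are the 9 genes, program genes that pass the call rule, 7 program genes and 7 markers fixed by name, and the 3 genes most correlated with Il17a. Others named with values were chosen later, and some of these, such as Lck, Il1r2 and Flt3, are not marked so where they are named. Ccl20, Cd5l and Dmbt1 were not analysed here. The results for some genes of the lists are not reported here, and the counts and sums leave them out.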

Additional observations from a re-analysis of the deposited data

How the results depend on the processing

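The log2 fold changes of the 9 genes kept their direction under all 126 combinations of a gene and another setting. Of these values, 92 also stayed on the same side of the call rule, 21 no longer passed it and 13 newly passed it. All 14916 tested genes gave 217 calls and the 64 tested program genes 7. DESeq2 gave 359 calls and 13 program calls, no filter on low counts 637 and 13, and the GC and length correction together with the replicate block 330. Leaving out each library in turn gave 35 to 254 calls over all genes, 0 to 6 program calls and 0 to 7 calls among the 9 genes, each with fewer samples in the fit. Without W/ IL-10 replicate 3 edgeR called no program gene, with 22 at an unadjusted p under 0.05.

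Whether equal replicate numbers pair the libraries is not stated. The correlations of same-numbered libraries' deviations were 0.0524, -0.0573 and 0.114, and those of the other pairs lay between -0.106 and 0.0409. With 3 libraries per group these values cannot settle the question. With the replicate number as a block, edgeR gave 196 calls, 8 program calls and 7 calls among the 9 genes, and Etv5 was no longer called (adjusted p = 0.0571). Etv5 and Il18rap were also no longer called with the GC and length correction, at log2 fold changes of -0.54 and 0.57.

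Il17f, Il17rc, Id3, Sox4 and Src rest on at most 162 counts per library. Library preparation, strand use and the origin of the replicates are uncertain.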
